A study of Mus musculus with 39 samples.

Results

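The kidneys of ABT-737-treated old mice were compared with those of young mice, in 7 of the 39 samples of a study of aging in Prf1-/- mice. The samples were the kidney libraries titled ABT-737, replicates 3 to 5, and young, replicates 1 to 4, and 3 vehicle-treated old kidneys entered the same fit and are given beside them. RNA was counted at the 3′ ends of transcripts by a bulk form of MARS-seq, in which samples are barcoded and pooled. All mice were C57BL/6 and lacked Prf1 (perforin, the pore-forming protein of cytotoxic lymphocytes), the young controls included, and male animals are given in the study's text while the labels give no sex. Young mice were 3 months old and untreated. Old mice were 20 months old and had received ABT-737 at 25 mg/kg, or vehicle, in 2 monthly rounds of 2 daily injections that began at 18 months. The treatment labels of ABT-737 replicates 4 and 5 read ABT-738 and ABT-739, and both were placed by their titles. ABT-737-treated and young mice differed in age and in treatment at once, so that age and drug cannot be told apart in this comparison, and the hour at which tissue was taken is not given in the sources used here. The design text calls the samples biological replicates.

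ABT-737 binds BCL-2 and related proteins that hold off apoptosis, and is used as a senolytic, a drug that removes senescent cells. The kidney is made largely of tubule epithelium, whose segments (proximal tubule, loop of Henle, distal convoluted and connecting tubule, collecting duct) each carry their own transporters, and old kidneys are known to hold more immune cells than young ones. Kidney cells also run a circadian clock, in which the activators BMAL1 (Arntl), CLOCK and NPAS2 drive their own repressors and the output factors Dbp, Tef and Hlf through E-box elements.

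Total counts were 2218423 to 3513311 in the young, 1983294 to 2107780 in the ABT-737-treated and 1431814 to 2584882 in the vehicle-treated libraries. Levels below are normalized CPM, which are counts scaled to a normalized library size of 1000000. They are not set against each other between genes, since 3′ counting gives no length-scaled level. Prf1, which is deleted in every group, had 1 to 11 counts in young and 1 to 3 in ABT-737-treated kidneys. These counts cannot show the deletion, since no wild-type library was analysed here. Tubule transcripts were abundant in each library, with 42 of 43 listed proximal tubule genes tested and a summed level of 52811 to 59388 CPM in young and 55106 to 63070.5 CPM in ABT-737-treated kidneys. ABT-737 replicate 3 stood apart in ribosomal RNA, with 2.80% of its counts on Rn45s against 0.14% to 0.66% in the other 9 libraries. Young replicate 1 stood apart in hemoglobin, with 8335 CPM over the hemoglobin genes against 1505 to 2001 CPM in the other young libraries. List counts that changed without both are given below.

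Of 11123 genes tested, 236 (2.12%) differed between ABT-737-treated and young kidneys at an adjusted p under 0.05 in the quasi-likelihood test of edgeR, adjusted by Benjamini-Hochberg. The same test gives each adjusted p below. Of these, 154 (1.38%) were higher and 82 (0.737%) were lower with ABT-737. In the same fit the vehicle-treated kidneys differed from the young ones in 1474 genes (13.3%), 862 of them higher (7.75%) and 612 lower (5.5%). They differed from the ABT-737-treated ones in 150 genes (1.35%), of which 15 were higher (0.135%) and 135 lower (1.21%) with ABT-737. Values of ABT-737-treated and young kidneys did not overlap for 234 of the 236 called genes, against 1801 (16.2%) of all genes tested. Lack of overlap was also a condition for naming genes by largest change or smallest p. Where it is given below for a called gene, it describes the values and adds no support to the call. Over all genes tested the median log2 fold change was 0.01 for ABT-737 against young and also 0.01 for vehicle against young. The number called fell to 133 without ABT-737 replicate 3, 136 without young replicate 1 and 92 without both, and lay between 107 and 111 without young replicate 2, 3 or 4. All differences from young below use the same 4 young libraries, so the vehicle and ABT-737 values are shown side by side and are not independent of each other.

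**Figure D1:**
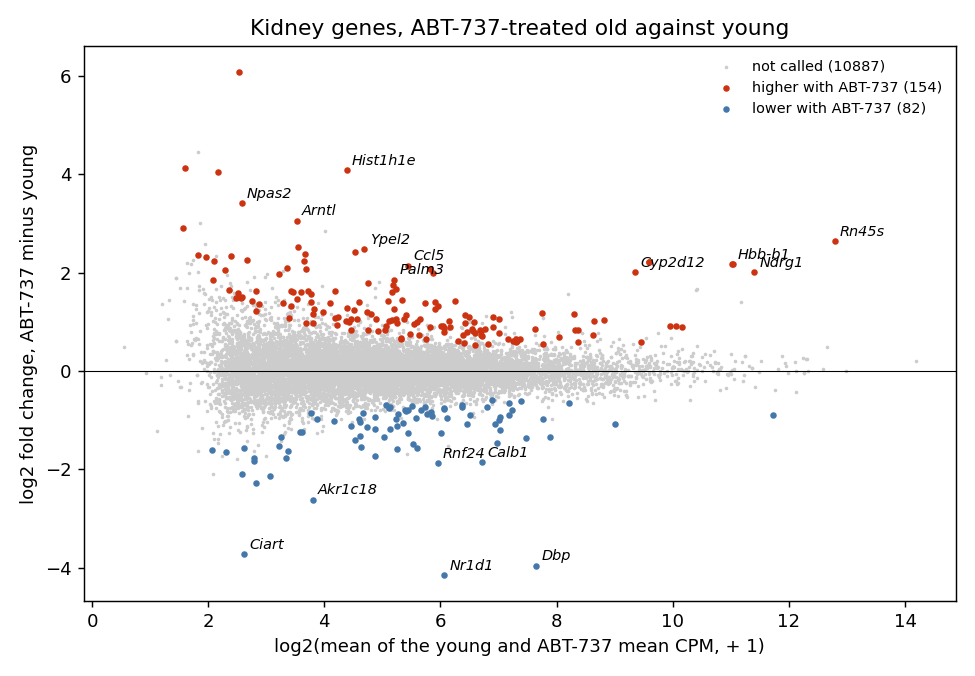
Log2 fold change of ABT-737-treated against young kidney for each of the 11123 genes tested (vertical axis, edgeR) plotted against log2 of the mean normalized CPM plus 1 (horizontal axis). Red points are the 154 genes called higher, blue points the 82 called lower, and grey points the others. The clock genes Dbp, Nr1d1 and Ciart lie lowest, and the uppermost red point is Mir124-2hg, a noncoding transcript (log2 fold change 6.09).

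The lowest log2 fold changes among called genes were those of the clock genes Nr1d1, Dbp and Ciart. Of 19 circadian clock genes tested of 20 listed, 8 were called, with Arntl, Npas2, Cry1 and Nfil3 higher and Dbp, Nr1d1, Ciart and Per3 lower with ABT-737, against 2.12% of all genes. The median over the list was −0.15, since the called members went in both directions. With vehicle against young, 4 members were called higher and 8 lower, against 7.75% and 5.5% of all genes. Between ABT-737 and vehicle edgeR and DESeq2 each called 0, with 2 at an unadjusted p under 0.05 in edgeR. Over all genes edgeR called 1.35% there, so 0 in a list this short says little.

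Dbp (NM_016974, chromosome 7 from 45705247 to 45710203), a clock output factor that binds D-box elements, had 341, 363, 371 and 419 CPM in the 4 young kidneys and 24.1, 24.7 and 22.8 CPM in the 3 ABT-737-treated ones. Every treated kidney was at least 13.8-fold below every young kidney (log2 fold change −3.96 with SE 0.18, adjusted p = 2.07e-09 in edgeR). Vehicle-treated kidneys had 30.2, 18.5 and 23 CPM (log2 fold change against young −3.93), and ABT-737 and vehicle differed by −0.03 (adjusted p = 0.967, edgeR). Dbp overlaps Sphk2 on the opposite strand.

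Nr1d1 (NM_145434, chromosome 11 from 98767932 to 98775377), which encodes the repressor REV-ERB alpha, went from 127, 119.6, 152 and 102 CPM in young to 8.73, 4.95 and 7.27 CPM in ABT-737-treated kidneys. The lowest young value was 11.7-fold above the highest treated value (log2 fold change −4.16 with SE 0.24, adjusted p = 4.73e-08 in edgeR). In vehicle-treated kidneys it had 12.2, 18.5 and 11.3 CPM, each above each ABT-737-treated value, and the difference between these groups did not pass (log2 fold change −0.96, adjusted p = 0.132, edgeR). Nr1d1 overlaps Thra on the opposite strand. Ciart (NM_001033302, chromosome 3 from 95878505 to 95882228), a repressor of BMAL1 and CLOCK, had 12, 36, 44 and 22 counts in young and 2, 1 and 1 counts in ABT-737-treated kidneys. The treated group was at the floor of 3 counts, so Ciart was at least 6.12-fold lower (adjusted p = 0.00181, edgeR). Per3 (NM_001289878, chromosome 4 from 151003655 to 151044665), a period gene, had 8.15, 11, 12 and 5.54 CPM in young and 4.62, 1.48 and 2.08 CPM in ABT-737-treated kidneys, 2 groups that lay next to each other without overlap (log2 fold change −1.78 with SE 0.41, adjusted p = 0.0344 in edgeR). The call for Per3 did not hold without young replicates 1, 2 or 3 or ABT-737 replicates 4 or 5 (adjusted p up to 0.101, without young replicate 3).

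The genes called higher were the activators Arntl and Npas2 and the repressors Cry1 and Nfil3. Arntl (NM_007489, chromosome 7 from 113207465 to 113314126), which encodes BMAL1, rose from 2.57, 3.03, 2.05 and 0.923 CPM in young to 19.5, 24.7 and 12.5 CPM in ABT-737-treated kidneys, with no overlap (log2 fold change 3.06 with SE 0.33, adjusted p = 0.000114 in edgeR). Npas2 (NM_008719, chromosome 1 from 39194272 to 39363240), a partner of BMAL1, had 2.57, 0, 0.293 and 0.923 CPM in young and 9.25, 10.4 and 7.27 CPM with ABT-737 (log2 fold change 3.41 with SE 0.60, adjusted p = 0.00668 in edgeR). These levels came from 6, 0, 1 and 2 counts in young and 18, 21 and 14 counts in treated kidneys. Arntl was also low in young kidneys, at 6, 11, 7 and 2 counts, and neither gene was at the floor there. Their partner Clock did not pass (log2 fold change 0.67, adjusted p = 0.317, edgeR). Cry1 (NM_007771, chromosome 10 from 85131700 to 85185054), a repressor of the activators, rose from 5.15, 2.20, 5.85 and 2.77 to 15.9, 20.3 and 20.8 CPM (log2 fold change 2.24 with SE 0.30, adjusted p = 0.000942 in edgeR). Nfil3 (NM_017373, chromosome 13 from 52967209 to 52981039), a repressor at D-box elements, rose from 4.29, 6.06, 2.05 and 6.00 to 28.8, 18.3 and 10.4 CPM (log2 fold change 2.07 with SE 0.36, adjusted p = 0.00656 in edgeR). For both Cry1 and Nfil3 the lowest treated kidney lay above the highest young one. With vehicle against young, Arntl, Npas2, Cry1 and Nfil3 had log2 fold changes of 2.86, 2.84, 2.26 and 2.08. Per3 had −1.46, and Ciart had 2, 1 and 0 counts in the vehicle-treated kidneys.

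Of the remaining members, the paralog Nr1d2 had a log2 fold change of −1.42 (adjusted p = 0.0877), and the output factor Tef of −0.59 (adjusted p = 0.0577, edgeR for both). Per1, Per2, Hlf, Wee1, Bhlhe40 and Usp2 had log2 fold changes from −0.46 to −0.04 and did not pass. Leaving out 1 library at a time gave 4 or 5 clock genes higher and 3 to 5 lower, and leaving out ABT-737 replicate 3 and young replicate 1 gave 3 and 4.

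**Figure D2:**
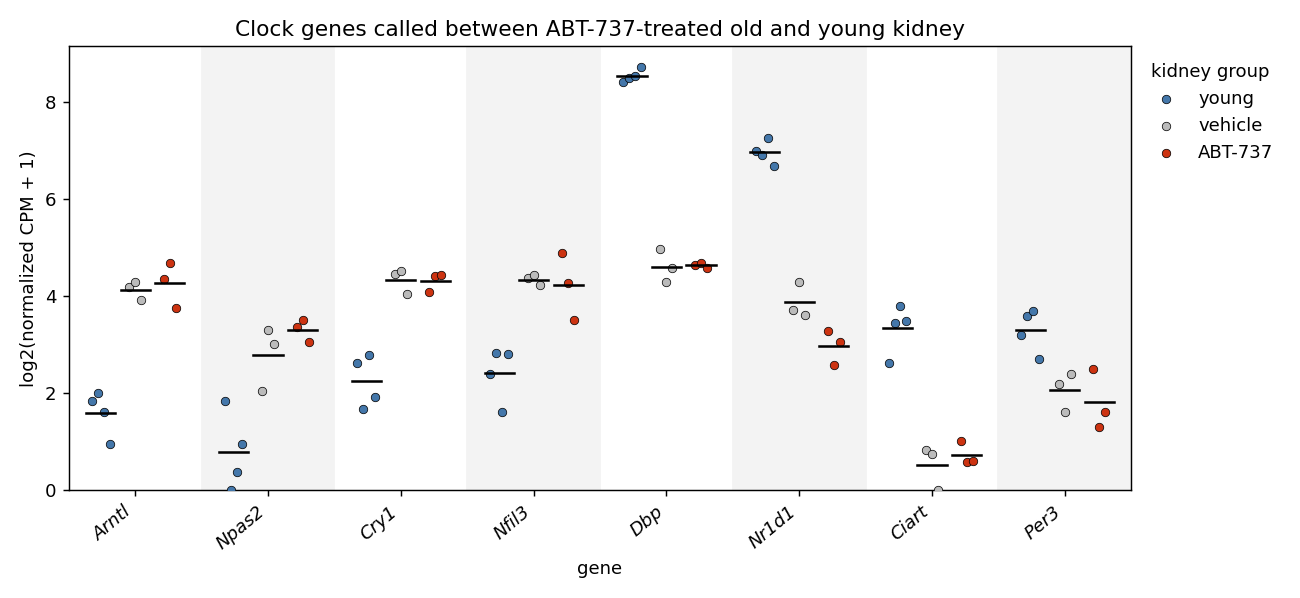
Level of the 8 called clock genes in each kidney library as log2 of the normalized CPM plus 1 (vertical axis), with 1 point per library (4 young in blue, 3 vehicle in grey, 3 ABT-737 in red) and a black bar at each group's mean. Dbp in young kidneys lies at 341 to 419 CPM and in both old groups at 18.5 to 30.2 CPM, and in the 4 genes at the left the young libraries lie lowest.

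The promoter windows of clock genes were searched for E-boxes (CACGTG) and D-boxes (TTATGTAA), through which a part of the clock genes is known to be driven. Other elements that drive clock genes were not searched for. RefSeq windows of GRCm38.p6, from 250 bases before to 50 bases after the start of transcription, were found for 17 of the 20 listed genes. On either strand, an E-box was found in 7.15% and a D-box in 0.938% of all 32851 windows. Among the 4 lower genes, the window of Ciart held 3 E-boxes, 116, 58 and 44 bases before the start, and that of Per3 held 2 D-boxes, 205 and 158 bases before it. Among the higher genes, that of Cry1 held 1 E-box, 60 bases before the start. Of the 8 genes with a window that were not called, Per1 and Tef held an E-box as well, as did Bhlhe41, which was not tested, so that called and uncalled genes carried it in the same share. The windows of Dbp, Nr1d1, Arntl, Npas2 and Nfil3 held neither, which says only that these letters are not in these windows. Each window is given 5′ to 3′ on the gene's own strand (minus for all 3), in lower case with the E-box or D-box in capitals.
Ciart, chr3:95882179-95882478: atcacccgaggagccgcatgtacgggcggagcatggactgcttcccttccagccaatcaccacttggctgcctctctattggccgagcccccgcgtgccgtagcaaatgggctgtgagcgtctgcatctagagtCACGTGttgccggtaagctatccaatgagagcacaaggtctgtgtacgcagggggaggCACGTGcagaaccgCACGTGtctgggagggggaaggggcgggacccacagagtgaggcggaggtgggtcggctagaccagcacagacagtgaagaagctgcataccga
Per3, chr4:151044616-151044915: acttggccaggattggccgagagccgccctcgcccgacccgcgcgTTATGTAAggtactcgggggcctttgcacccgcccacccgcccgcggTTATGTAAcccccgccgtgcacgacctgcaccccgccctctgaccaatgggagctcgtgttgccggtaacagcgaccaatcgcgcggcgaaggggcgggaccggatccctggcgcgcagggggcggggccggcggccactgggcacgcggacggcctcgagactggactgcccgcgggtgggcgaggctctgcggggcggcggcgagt
Cry1, chr10:85185005-85185304: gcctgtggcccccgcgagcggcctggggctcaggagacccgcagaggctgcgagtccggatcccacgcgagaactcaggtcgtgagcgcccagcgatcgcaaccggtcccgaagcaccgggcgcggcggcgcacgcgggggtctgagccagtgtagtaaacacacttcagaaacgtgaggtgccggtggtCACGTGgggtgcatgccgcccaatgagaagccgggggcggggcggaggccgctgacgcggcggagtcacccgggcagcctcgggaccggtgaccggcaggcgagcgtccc
A lower and a higher gene both carried an E-box, and the motif counts describe the windows only.

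The 8 called clock genes were read in the liver and lung libraries of the study, as a description with no test. Dbp had 213 to 326 CPM in young and 3.96 to 9.90 CPM in ABT-737-treated livers, and 283 to 412 and 8.50 to 16.9 CPM in young and ABT-737-treated lungs. Arntl had 0 to 1.54 CPM in young and 12.4 to 19.8 CPM in ABT-737-treated livers, and 0.490 to 2.09 and 4.22 to 16.1 CPM in the lungs. With vehicle, Dbp had 5.85 to 11.6 CPM in the liver and 9.35 to 12.0 CPM in the lung. Arntl had 0 to 12.8 and 8.23 to 11.4 CPM there. For Dbp, Arntl, Nr1d1, Ciart and Nfil3 no young library overlapped an ABT-737-treated one in either tissue, at 0 to 1 count of Arntl in young and 5 to 8 in ABT-737-treated livers. Cry1 had 2.98 to 11.6 CPM in young and 11.9 to 26.6 CPM in ABT-737-treated livers, whereas in the lung its 19.8 to 34.8 CPM in young overlapped the 28.6 to 48.9 CPM with ABT-737. Npas2 had 0 counts in every young and ABT-737-treated liver, unlike the kidney, and 0 to 1.04 and 3.58 to 8.43 CPM in the lungs. Per3 overlapped between the groups in both tissues. How far the hour of collection moved with the groups was not tested, since no label or method gives it.

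Beside the clock genes, the smallest p-values included those of Cyp2d12, Ndrg1 and Palm3. Cyp2d12 (NM_201360, chromosome 15 from 82555098 to 82559413), a cytochrome P450 of a large family, rose from 250.5, 272, 320.2 and 192 CPM in young to 1026, 900.2 and 1185 CPM in ABT-737-treated kidneys (log2 fold change 2.0 with SE 0.17, adjusted p = 7.04e-06 in edgeR). Its family member Cyp2d26 (NM_029562, chromosome 15 from 82790107 to 82794245) fell from 254, 227, 286 and 245 to 90.9, 110.4 and 93.5 CPM (log2 fold change −1.37 with SE 0.17, adjusted p = 0.000581 in edgeR). Groups did not overlap for either gene, which was a condition for naming them. These 2 genes moved in opposite directions, although reads of such close relatives could have been split between them. Vehicle-treated kidneys had 1061, 1199.9 and 1098 CPM of Cyp2d12 and 117, 147 and 197 CPM of Cyp2d26.

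Ndrg1 (NM_008681, chromosome 15 from 66929318 to 66969641), a gene known to be induced by hypoxia and differentiation, rose from 1280.2, 1106, 981 and 932 CPM in young to 4953, 4749 and 3272 CPM with ABT-737 (log2 fold change 2.01 with SE 0.17, adjusted p = 7.04e-06 in edgeR). Every treated kidney was at least 2.56-fold above every young one, and vehicle-treated kidneys had 3687, 4033 and 3993 CPM. Palm3 (NM_028877, chromosome 8 from 84021474 to 84030295), a membrane-associated paralemmin that overlaps Il27ra on the opposite strand, rose from 17.6, 11.6, 16.7 and 16.6 to 59.6, 54.4 and 54 CPM (log2 fold change 1.85 with SE 0.17, adjusted p = 1.55e-05 in edgeR). Rhobtb1 (NM_001081347, chromosome 10 from 69212657 to 69291784), an atypical small GTPase, rose from 28.7, 34.2, 34.2 and 32.3 to 90.9, 80.2 and 86.2 CPM (log2 fold change 1.4 with SE 0.15, adjusted p = 0.000114 in edgeR). Ypel2 (NM_001005341, chromosome 11 from 86936425 to 86993762) rose from 7.72, 8.82, 9.66 and 2.77 to 56, 43.6 and 27.5 CPM (log2 fold change 2.48 with SE 0.29, adjusted p = 0.000215 in edgeR). In each of these 3 the treated range lay wholly above the young range, which was a condition for naming them.

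Akr1c18 (NM_134066, chromosome 13 from 4132627 to 4150631), which inactivates progesterone, fell from 22.7, 24, 16.7 and 25.8 CPM in young to 3.60, 4.45 and 2.60 CPM with ABT-737 (log2 fold change −2.62 with SE 0.31, adjusted p = 0.000222 in edgeR). Rnf24 (NM_178607, chromosome 2 from 131298488 to 131352892), a RING finger gene that overlaps Pank2 on the opposite strand, fell from 73.8, 88.5, 85.8 and 135 to 24.7, 26.2 and 27 CPM (log2 fold change −1.87 with SE 0.22, adjusted p = 0.000215 in edgeR). Upp2, a uridine phosphorylase, fell from 9.86, 13, 13.5 and 12 to 2.57, 2.97 and 2.60 CPM (log2 fold change −2.14 with SE 0.35, adjusted p = 0.00393 in edgeR). Vehicle-treated kidneys lay below the young range in all 3 genes, at 2.36, 0.684 and 2.35 CPM of Akr1c18, 25.9, 21.9 and 16.4 CPM of Rnf24 and 5.50, 2.05 and 2.35 CPM of Upp2. Cyp26b1, which degrades retinoic acid, rose from 5.15, 2.76, 2.05 and 3.23 to 9.76, 32.7 and 11.9 CPM (log2 fold change 2.51 with SE 0.44, adjusted p = 0.00715 in edgeR), with replicate 4 well above the other treated kidneys. Rasd2, a small GTPase gene, fell from 9.01, 9.10, 11.4 and 11.1 to 3.60, 0.495 and 2.08 CPM (log2 fold change −2.29 with SE 0.41, adjusted p = 0.00734 in edgeR). Neurog2, a proneural transcription factor, had at most 2 counts in any young kidney and 10, 15 and 14 counts with ABT-737, and was at least 4.77-fold higher (adjusted p = 0.00236, edgeR).

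Among genes of the distal convoluted and connecting tubule the calls of edgeR were all lower, while the list's median lay near 0. Of 13 distal convoluted and connecting tubule genes tested, 4 were lower and 0 higher (median −0.03, against 0.737% of all genes lower), and 5 had a positive log2 fold change. At an unadjusted p under 0.05 in edgeR there were 7 of the 13, 3 of them higher. DESeq2 called 5, 1 of them higher. With vehicle against young, 3 were lower and 2 higher (median −0.23), against 5.5% and 7.75% of all genes. Between ABT-737 and vehicle edgeR called 0, against 1.35% of all genes, with 1 at an unadjusted p under 0.05. Calb1 (NM_009788, chromosome 4 from 15881264 to 15906709), the calcium-binding protein calbindin, had 142, 160.4, 155 and 198 CPM in young and 28.8, 77.7 and 28.6 CPM with ABT-737. Replicate 4 held more than the other treated kidneys and still lay below every young one (log2 fold change −1.86 with SE 0.27, adjusted p = 0.00184 in edgeR), and vehicle-treated kidneys had 34.2, 30.8 and 30.5 CPM. Kcnj10 (NM_001039484, chromosome 1 from 172341210 to 172374085), a basolateral potassium channel, fell from 42.5, 49.1, 59.7 and 51.7 to 20.5, 26.7 and 22.8 CPM (log2 fold change −1.12 with SE 0.18, adjusted p = 0.0038 in edgeR). Pvalb (NM_001330686, chromosome 15 from 78191112 to 78204237), the calcium buffer parvalbumin, fell from 50.2, 40.8, 42.4 and 56.8 to 25.2, 20.3 and 16.6 CPM (log2 fold change −1.19 with SE 0.25, adjusted p = 0.0178 in edgeR). Both genes were lower in each treated kidney than in any young one. Klk1 (NM_010639, chromosome 7 from 44225360 to 44229622), tissue kallikrein, fell from 4912, 4533, 3812 and 4391 to 2072, 3354 and 1703 CPM (log2 fold change −0.89 with SE 0.21, adjusted p = 0.0359 in edgeR). Pvalb did not pass without young replicates 1 or 4 or ABT-737 replicate 5 (adjusted p up to 0.064, without ABT-737 replicate 5). Klk1 did not pass without any 1 young replicate or ABT-737 replicates 3 or 5 (adjusted p up to 0.13, without ABT-737 replicate 3). Calb1 and Kcnj10 passed whichever library was left out, and 2 of the list were lower without ABT-737 replicate 3 and young replicate 1. Pvalb is also abundant in skeletal muscle. It was the 1 gene tested of 10 listed for muscle, and those genes summed to 46 to 63.2 CPM in young and 18.2 to 30.3 CPM in ABT-737-treated kidneys, Pvalb included.

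Intercalated cells of the collecting duct secrete acid or base. All 17 listed genes were tested, 16 had a negative log2 fold change, and 5 were called lower (Atp6v1b1, Slc26a4, Rhbg, Insrr and Hmx2), against 0.737% of all genes, with a median of −0.53. Rhbg (NM_021375, chromosome 3 from 88242874 to 88254684), an ammonium transporter, fell from 92.6, 105, 92.2 and 115 to 62.7, 65.8 and 59.2 CPM (log2 fold change −0.69 with SE 0.14, adjusted p = 0.0151 in edgeR). Atp6v1b1 (NM_134157, chromosome 6 from 83743017 to 83758810), a proton pump subunit, fell from 81.9, 76.6, 90.2 and 83.5 to 62.7, 42.6 and 41 CPM (log2 fold change −0.77 with SE 0.17, adjusted p = 0.0254 in edgeR). Slc26a4 (NM_011867, chromosome 12 from 31519819 to 31559969), the chloride-bicarbonate exchanger pendrin, fell from 78.5, 59.8, 66.2 and 73.4 to 27.2, 55.9 and 29.6 CPM (log2 fold change −0.88 with SE 0.21, adjusted p = 0.0417 in edgeR), with replicate 4 closest to young. Insrr (NM_011832, chromosome 3 from 87796951 to 87816101), a receptor that senses alkaline fluid, fell from 56.6, 45.8, 53.6 and 38.8 to 28.8, 17.8 and 27.5 CPM (log2 fold change −0.98 with SE 0.21, adjusted p = 0.0187 in edgeR). In all 4 the treated and young ranges did not overlap. With vehicle against young, 8 of the 17 genes were lower and 0 higher (median −0.43), against 5.5% and 7.75% of all genes. Between ABT-737 and vehicle edgeR called 0, against 1.35% of all genes, with 2 at an unadjusted p under 0.05. The 17 genes summed to 1874 to 1962 CPM in young, 1381 to 1564 CPM in vehicle-treated and 1413 to 1444 CPM in ABT-737-treated kidneys. Fewer cells of a type and less RNA per cell cannot be told apart in whole tissue, here and below. The calls rested on few libraries, since leaving out 1 library at a time left 0 to 5 of them, with 0 without young replicate 2, and 1 remained without ABT-737 replicate 3 and young replicate 1. Slc26a4 did not pass without any 1 young replicate, vehicle replicate 5 or ABT-737 replicates 3 or 5 (adjusted p up to 0.164, without ABT-737 replicate 3). Atp6v1b1 did not pass without any 1 young replicate or ABT-737 replicates 4 or 5 (adjusted p up to 0.0831, without young replicate 3). Insrr was lost without young replicates 1, 2 or 3 or ABT-737 replicate 4 (adjusted p up to 0.067, without young replicate 3), and Rhbg without young replicates 2 or 4 (adjusted p up to 0.0535, without young replicate 4).

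**Figure D3:**
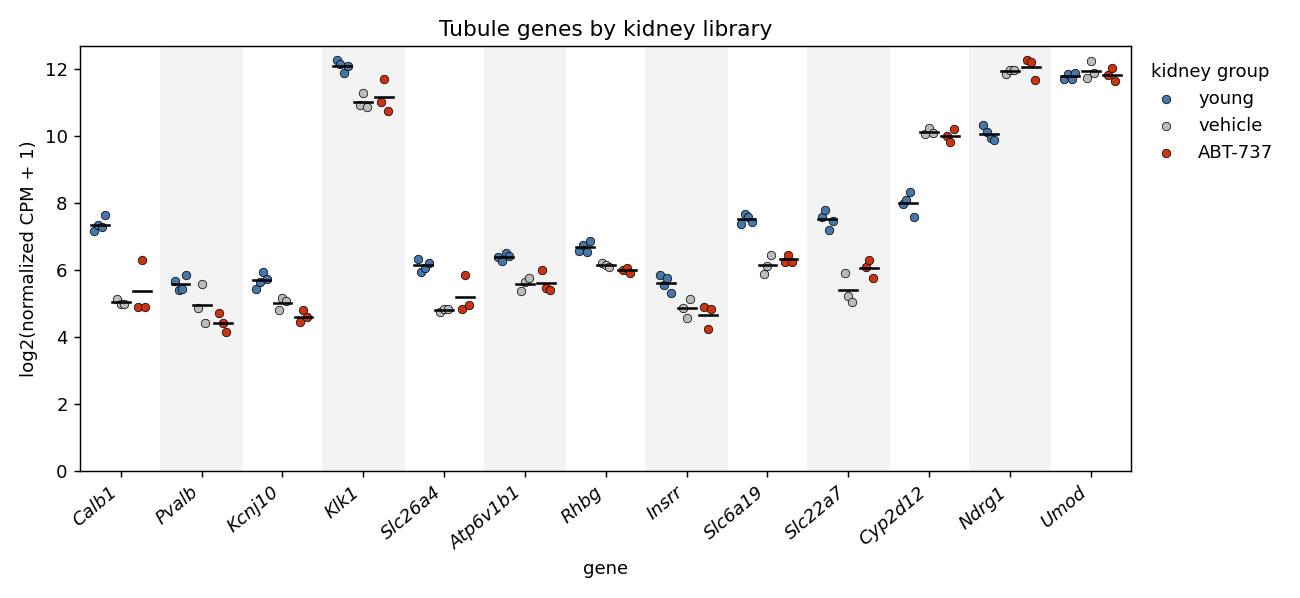
Level of tubule genes in each kidney library as log2 of the normalized CPM plus 1 (vertical axis), with 1 point per library (4 young in blue, 3 vehicle in grey, 3 ABT-737 in red) and a black bar at each group's mean. Distal genes at the left lie below the young libraries in the ABT-737 group, Cyp2d12 and Ndrg1 lie above them, and Umod, at 3603, 4165 and 3232 CPM with ABT-737, overlaps them.

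In the proximal tubule, which reabsorbs most of the filtered solutes, few genes were called. Of 42 genes tested, 1 was higher and 1 lower, with a median of 0.01, whereas vehicle against young gave 1 higher, 12 lower and a median of −0.32. Over all genes, 1.38% were higher and 0.737% lower with ABT-737, and 7.75% and 5.5% with vehicle. Slc6a19 (NM_028878, chromosome 13 from 73681157 to 73700695), the neutral amino acid transporter of the brush border, fell from 163, 201, 189 and 173 to 75, 86.1 and 74.8 CPM, with no overlap (log2 fold change −1.21 with SE 0.16, adjusted p = 0.000642 in edgeR). It overlaps Slc6a19os on the opposite strand. Cyp24a1 (NM_009996, chromosome 2 from 170482957 to 170497145), which inactivates vitamin D, rose from 25.7, 20.1, 26.9 and 20.3 to 59.6, 172 and 45.2 CPM (log2 fold change 1.98 with SE 0.41, adjusted p = 0.0176 in edgeR). Replicate 4 was highest, and Cyp24a1 did not pass without young replicates 2, 3 or 4 or ABT-737 replicate 4 (adjusted p up to 0.093, without ABT-737 replicate 4). Lrp2, Cubn, Slc34a1 and Aqp1, defining genes of the segment, had log2 fold changes of −0.10, 0.14, 0.05 and 0.06 and did not pass.

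Of 30 organic ion and drug transporters tested, 3 were lower and 1 higher (median −0.16), against 0.737% and 1.38% of all genes. With vehicle against young, 5 were lower and 3 higher (median −0.32), against 5.5% and 7.75% of all genes. Between ABT-737 and vehicle edgeR called 0, against 1.35% of all genes, with 7 at an unadjusted p under 0.05. Slc22a7 (NM_144856, chromosome 17 from 46432185 to 46438477), the organic anion transporter OAT2, fell from 192, 218, 145 and 177 to 67.3, 78.2 and 53.5 CPM (log2 fold change −1.46 with SE 0.21, adjusted p = 0.00149 in edgeR). Slc22a19 fell from 31.3, 55.1, 56.8 and 81.2 to 13.9, 24.7 and 16.6 CPM (log2 fold change −1.60 with SE 0.29, adjusted p = 0.00811 in edgeR). Slc22a13 fell from 398, 374, 349 and 331 to 199, 216 and 280.4 CPM (log2 fold change −0.65 with SE 0.15, adjusted p = 0.035 in edgeR). All 3 were lower in each treated kidney than in each young one. Slc22a13 did not pass without any 1 young replicate, vehicle replicate 5 or ABT-737 replicates 3 or 4 (adjusted p up to 0.136, without ABT-737 replicate 3), and 2 of the list were lower without ABT-737 replicate 3 and young replicate 1. Slc16a1 (NM_009196, chromosome 3 from 104638664 to 104658462), the lactate carrier MCT1, rose from 18.4, 15.2, 17.6 and 19.4 to 51.9, 69.8 and 44.6 CPM (log2 fold change 1.66 with SE 0.19, adjusted p = 0.000215 in edgeR). Its relative Slc16a6 (NM_001029842, chromosome 11 from 109450856 to 109473596) rose from 15.4, 17.6, 15.8 and 15.7 to 47.8, 66.3 and 50.4 CPM (log2 fold change 1.76 with SE 0.19, adjusted p = 0.000114 in edgeR). Treated and young ranges were apart for both carriers.

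In lists of antigen presentation and interferon genes, most members were called higher than young with vehicle and few with ABT-737. Over all genes, 7.75% were higher with vehicle and 1.38% with ABT-737. Of 9 MHC class II genes tested, 2 were higher than young with ABT-737 (median 0.64) and 8 with vehicle (median 2.44), and 8 were lower with ABT-737 than with vehicle. Of 19 MHC class I and immunoproteasome genes, 0 were called with ABT-737 (median 0.28), against 16 higher with vehicle, and 12 were lower with ABT-737 than with vehicle. Of 30 interferon-stimulated genes, 0 were called with ABT-737 (median 0.09) and 26 with vehicle, and of 12 guanylate-binding proteins and immunity-related GTPases 0 and 12. With ABT-737 against vehicle, 16 and 8 of these were lower, against 1.21% of all genes. With ABT-737 against young, DESeq2 also called 0 in the last 3 lists, and 2, 5 and 0 genes had an unadjusted p under 0.05 in edgeR, in that order. That 0 passed does not show that these genes were at their young level.

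H2-Ab1 (NM_207105, chromosome 17 from 34263227 to 34269418), a class II beta chain, had 706, 763, 643 and 867 CPM in young, 1227, 1222 and 1729.9 CPM in ABT-737-treated and 5987, 3172 and 2930.2 CPM in vehicle-treated kidneys. The ABT-737-treated values lay between the other groups without overlap (log2 fold change 0.90 with SE 0.22, adjusted p = 0.0454 in edgeR, and log2 fold change against vehicle −1.53, adjusted p = 0.00365). The call against young was lost without any 1 young replicate or ABT-737 replicates 3 or 5 (adjusted p up to 0.139, without young replicate 3), and 1 class II gene was called without ABT-737 replicate 3 and young replicate 1. Ctss (NM_021281, chromosome 3 from 95526786 to 95556405), the protease cathepsin S of antigen-presenting cells, had 16.7, 20.9, 20.8 and 26.8 CPM in young, 42.6, 64.8 and 64.9 CPM with ABT-737 and 138, 168 and 72.8 CPM with vehicle. It was above young in every treated kidney (log2 fold change 1.43 with SE 0.26, adjusted p = 0.00811 in edgeR). Cd74 and H2-Aa, further class II genes, had log2 fold changes of 0.64 and 0.67 and did not pass (adjusted p = 0.127 and 0.161, edgeR).

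Of 27 macrophage and dendritic cell genes tested, 6 were higher with ABT-737 than in young (median 1.01), against 1.38% of all genes, and 25 had a positive log2 fold change. With vehicle all 27 were higher (median 2.42), against 7.75% of all genes. Between the old groups, 11 of the 27 were lower with ABT-737 than with vehicle, against 1.21% of all genes. Laptm5 (NM_010686, chromosome 4 from 130913334 to 130936148), a lysosomal protein of leukocytes, had 26.2, 31.4, 26.1 and 19.4 CPM in young, 59.1, 56.4 and 56.6 CPM with ABT-737 and 113, 147 and 133 CPM with vehicle, 3 separate ranges (log2 fold change 1.14 with SE 0.17, adjusted p = 0.00206 in edgeR). C1qa (NM_007572, chromosome 4 from 136895916 to 136898844), a complement subunit made by macrophages, had 47.2, 54, 56.5 and 66.9 CPM in young, 101, 95.5 and 166 CPM with ABT-737 and 282, 432 and 262 CPM with vehicle (log2 fold change 1.11 with SE 0.22, adjusted p = 0.0128 in edgeR). Tyrobp (NM_011662, chromosome 7 from 30413788 to 30417579), an adaptor of myeloid receptors, had 17.6, 17.4, 13.2 and 18.5 CPM in young, 22.6, 43.6 and 44.6 CPM with ABT-737 and 65.6, 69.8 and 48.4 CPM with vehicle (log2 fold change 1.16 with SE 0.23, adjusted p = 0.0156 in edgeR). For C1qa and Tyrobp too the ABT-737-treated kidneys lay between the other groups. Ctss, Lyz2 (log2 fold change 1.36) and Ms4a7 (log2 fold change 2.25) made up the 6. Csf1r, Cd68, Adgre1 and Cd14, defining genes of macrophages, had log2 fold changes of −0.15, 0.35, 0.93 and 0.91 and did not pass. The listed genes summed to 372 to 469 CPM in young, 616 to 950.1 CPM in ABT-737-treated and 1372 to 2299 CPM in vehicle-treated kidneys. The number called was 2 without ABT-737 replicate 5, 3 without young replicate 3 and 4 without ABT-737 replicate 3 and young replicate 1. C1qa did not pass without ABT-737 replicate 5 (adjusted p = 0.0584). Tyrobp did not pass without young replicate 3 or ABT-737 replicates 4 or 5 (adjusted p up to 0.0629, without ABT-737 replicate 5).

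Lymphocyte genes were likewise called less often with ABT-737 than with vehicle against young, a difference between counts that was not tested. Tested gene by gene, 8 of 14 T and NK cell genes were lower with ABT-737 than with vehicle. Of 8 B and plasma cell genes 1 was, against 1.21% of all genes. Of 14 T and NK cell genes tested of 38 listed, Ccl5 and Nkg7 were higher with ABT-737 than in young, and 14 were higher with vehicle (medians 1.19 and 2.99). The shares over all genes were 1.38% and 7.75%. Ccl5 (NM_013653, chromosome 11 from 83525779 to 83530518), a chemokine of T cells, had 8.58, 17.9, 21.1 and 13.4 CPM in young, 52.9, 54.4 and 101 CPM with ABT-737 and 156, 359 and 271 CPM with vehicle (log2 fold change 2.14 with SE 0.32, adjusted p = 0.00207 in edgeR). No 2 of these 3 ranges overlapped. Nkg7, a granule protein of cytotoxic lymphocytes, had 4.72, 3.03, 6.15 and 5.08 CPM in young, 14.9, 9.40 and 19.7 CPM with ABT-737 and 25.9, 47.2 and 43.2 CPM with vehicle (log2 fold change 1.63 with SE 0.34, adjusted p = 0.0171 in edgeR). Nkg7 did not pass without young replicates 2 or 4 or ABT-737 replicates 3 or 5 (adjusted p up to 0.0697, without ABT-737 replicate 5), and 1 gene of the list was called without ABT-737 replicate 3 and young replicate 1. Of the 14 genes, 12 had a positive log2 fold change. Among genes that define T cells, Cd3d and Cd8a had log2 fold changes of −0.04 and −0.00081, and Cd3e, Cd2 and Cd8b1 of 0.94, 1.89 and 1.99. None of these 5 passed (adjusted p = 0.0545 for Cd8b1, the lowest, edgeR), and Cd2 and Cd8b1 did not overlap with young. The listed genes summed to 46.3 to 61.8 CPM in young, 111 to 193 CPM with ABT-737 and 349 to 664 CPM with vehicle.

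Of 8 B and plasma cell genes tested, 1 was higher with ABT-737 and 7 with vehicle (medians 1.73 and 2.46), against 1.38% and 7.75% of all genes. Mzb1, a chaperone of antibody-secreting cells, had 3.86, 3.58, 3.22 and 4.62 CPM in young, 23.6, 20.3 and 15.1 CPM with ABT-737 and 18.5, 55.4 and 16.4 CPM with vehicle (log2 fold change 2.38 with SE 0.42, adjusted p = 0.00715 in edgeR). Here the ABT-737 and vehicle ranges overlapped (log2 fold change −0.54, adjusted p = 0.522, edgeR). Among 18 complement genes tested, 3 were higher (median 0.34), against 1.38% of all genes. With vehicle against young, 13 were higher and 1 lower (median 1.21), against 7.75% and 5.5% of all genes. C4b (NM_009780, chromosome 17 from 34728381 to 34743897), complement component 4, had 6.86, 11.9, 10.8 and 17.5 CPM in young, 51.9, 23.8 and 45.7 CPM with ABT-737 and 118, 187 and 78.9 CPM with vehicle (log2 fold change 1.79 with SE 0.34, adjusted p = 0.0115 in edgeR). C4b did not pass without ABT-737 replicate 3 (adjusted p = 0.0564). Its close paralog C4a went from 3.00, 3.03, 1.46 and 2.31 to 8.73, 4.95 and 7.27 CPM (log2 fold change 1.5 with SE 0.36, adjusted p = 0.041 in edgeR), and reads of the pair could have been split. C4a did not pass without any 1 young replicate, vehicle replicate 5 or ABT-737 replicates 3 or 5 (adjusted p up to 0.179, without ABT-737 replicate 3). With ABT-737 replicate 3 and young replicate 1 both left out, C4b, C4a and C1qa, the 3 complement genes called, did not pass.

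**Figure D4:**
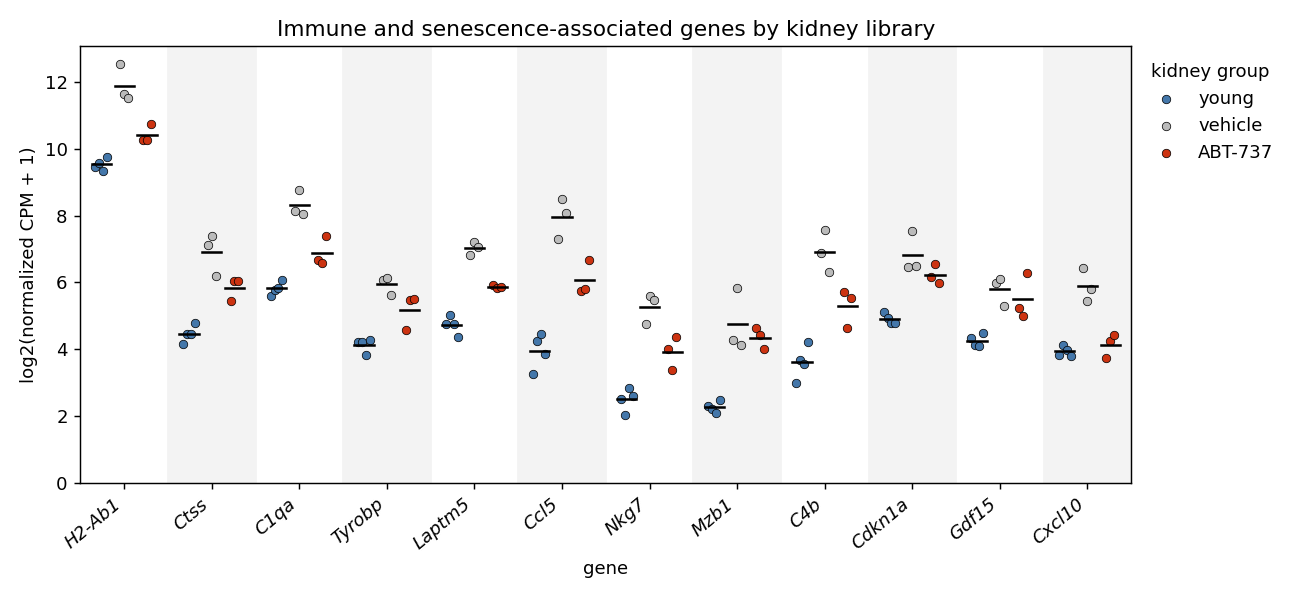
Level of immune and senescence-associated genes in each kidney library as log2 of the normalized CPM plus 1 (vertical axis), with 1 point per library (4 young in blue, 3 vehicle in grey, 3 ABT-737 in red) and a black bar at each group's mean. Ccl5 and Laptm5 show 3 separate ranges with ABT-737 in the middle, whereas Cxcl10 with ABT-737, at 12.3 to 20.2 CPM, overlaps the young libraries.

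Senescent cells are known for CDK inhibitors that stop the cycle and for secreted cytokines and growth factors. Of the 21 CDK inhibitors and senescence regulators tested, 6 were higher with vehicle than in young kidneys, against 7.75% of all genes. With ABT-737 against young, 1 of the 21 was called, against 2.12% of all genes. This was Cdkn1a (NM_007669, chromosome 17 from 29093769 to 29100722), which encodes p21, at 33.9, 29.5, 26.3 and 26.3 CPM in young, 70.9, 92 and 61.8 CPM with ABT-737 and 86.8, 187 and 89.2 CPM with vehicle (log2 fold change 1.37 with SE 0.25, adjusted p = 0.00811 in edgeR). Each treated kidney exceeded each young one, and the difference from vehicle did not pass (log2 fold change −0.67, adjusted p = 0.218, edgeR). Cdkn2a, the gene of p16, was below the filter, with at most 1 count in young, 2 to 3 counts in vehicle-treated and 0 counts in ABT-737-treated kidneys, counted per gene and not per transcript, and no fold is given. Cdkn2b, Il10, Il1rn and Tnf were also below it, at no more than 15, 2, 7 and 6 counts in any kidney, and Il6 had 0 counts in all 10.

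Of 38 genes of the senescence-associated secretory list tested, 2 were higher and 1 lower (median 0.13), against 1.38% and 0.737% of all genes. With vehicle against young, 16 were higher and 2 lower (median 0.52), against 7.75% and 5.5% of all genes. Between the old groups, 2 were lower with ABT-737 than with vehicle, against 1.21% of all genes. Gdf15 (NM_011819, chromosome 8 from 70629393 to 70632095), a stress-induced cytokine, rose from 19.3, 16.3, 16.1 and 21.2 to 36.5, 30.7 and 77.4 CPM (log2 fold change 1.41 with SE 0.29, adjusted p = 0.0156 in edgeR). Replicate 5 was highest, and Gdf15 did not pass without young replicates 2 or 3 or ABT-737 replicate 5 (adjusted p up to 0.0688, without ABT-737 replicate 5). Igfbp6, a binding protein of insulin-like growth factors, fell from 7.72, 7.44, 8.78 and 8.77 to 2.05, 1.98 and 1.56 CPM (log2 fold change −2.10 with SE 0.46, adjusted p = 0.0248 in edgeR). The treated kidneys held 4, 4 and 3 counts, and Igfbp6 did not pass without any 1 young replicate or ABT-737 replicates 3, 4 or 5 (adjusted p up to 0.0845, without ABT-737 replicate 3). The other called member was Ccl5. Among the chemokines, Ccl2 had 0.429, 1.10, 2.05 and 0.923 CPM in young and 3.08, 3.96 and 5.19 CPM with ABT-737 (log2 fold change 1.72, adjusted p = 0.0573, edgeR). Cxcl9 and Cxcl10 had log2 fold changes of 1.08 and 0.21 (adjusted p = 0.227 and 0.739, edgeR). Ccl2 values did not overlap between the groups, whereas those of Cxcl9 and Cxcl10 did.

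The proteins that ABT-737 binds are encoded by Bcl2, Bcl2l1 and Bcl2l2. Of the 4 anti-apoptotic and the 13 pro-apoptotic family genes tested, edgeR and DESeq2 called 0, and 1 and 0 had an unadjusted p under 0.05 in edgeR. Over all genes edgeR called 2.12%. Bcl2l1, which encodes BCL-XL, had 167, 143, 135 and 129 CPM in young and 180.3, 221 and 181 CPM with ABT-737 (log2 fold change 0.43, adjusted p = 0.123, edgeR). Bcl2, Bcl2l2 and Mcl1 had log2 fold changes of 0.30, 0.18 and 0.14, and their ranges overlapped those of young kidneys.

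Of 35 tubule injury and repair genes tested, 2 were higher with ABT-737 (median 0.09) and 18 with vehicle (median 0.60), against 1.38% and 7.75% of all genes. The 2 were Gdf15 and Fga, a fibrinogen chain that went from 20.6, 19.3, 15.2 and 13.4 to 64.2, 58.9 and 34.8 CPM (log2 fold change 1.61 with SE 0.32, adjusted p = 0.0128 in edgeR). Fga did not pass without young replicates 3 or 4 or ABT-737 replicate 3 (adjusted p up to 0.0622, without ABT-737 replicate 3). Fga is also a hepatocyte gene. The 10 listed hepatocyte genes, of which 5 were tested, summed to 363 to 595 CPM in young and 308 to 521 CPM with ABT-737, and Alb had a log2 fold change of 0.15. Havcr1, the injury marker KIM-1, had 3.00, 3.03, 0.585 and 3.69 CPM in young and 9.25, 9.90 and 8.83 CPM with ABT-737. Its values did not overlap and it missed the threshold (log2 fold change 1.90, adjusted p = 0.051, edgeR). Lcn2, the injury marker NGAL, had 3.00, 1.93, 4.68 and 7.85 and 4.11, 9.40 and 14.5 CPM (log2 fold change 1.16, adjusted p = 0.232, edgeR). Kl, the anti-aging gene klotho, and Umod, uromodulin of the loop of Henle, had log2 fold changes of −0.26 and 0.04 (adjusted p = 0.419 and 0.928, edgeR), and both overlapped young.

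Stress genes gave small numbers of calls, in both directions among heat shock genes and only higher among immediate early and antioxidant genes. Among 25 heat shock proteins and chaperones, Hspb8 was higher and Hspa1a and Hspa1b lower, against 1.38% and 0.737% of all genes. Hspa1a (NM_010479, chromosome 17 from 34969359 to 34972156), inducible HSP70, fell from 97.8, 44.4, 68.8 and 74.3 to 22.6, 27.2 and 21.3 CPM (log2 fold change −1.57 with SE 0.23, adjusted p = 0.00206 in edgeR). Hspa1b, a nearly identical copy whose reads could have been split with it, fell from 65.2, 47.7, 62.4 and 63.7 to 19.5, 40.6 and 14 CPM (log2 fold change −1.26 with SE 0.26, adjusted p = 0.0179 in edgeR). Hspa1b did not pass without young replicates 1, 3 or 4 or ABT-737 replicates 3 or 5 (adjusted p up to 0.0866, without ABT-737 replicate 3). Hspb8, a small heat shock protein, rose from 6.86, 6.61, 9.66 and 7.85 to 18, 16.3 and 21.8 CPM (log2 fold change 1.26 with SE 0.23, adjusted p = 0.0103 in edgeR). For these 3 genes treated and young ranges were apart. Of 21 immediate early genes, Dusp1, Ier5 and Jund were higher (log2 fold changes 0.99, 1.05 and 0.58, adjusted p = 0.0395, 0.0171 and 0.0417, edgeR), with a list median of 0.46. The share over all genes was 1.38%, and 19 of the 21 had a positive log2 fold change. With vehicle against young, 6 of the 21 were higher (median 0.45), against 7.75% of all genes. Dusp1 did not pass without any 1 young replicate or ABT-737 replicates 3 or 5 (adjusted p up to 0.124, without ABT-737 replicate 5). Ier5 did not pass without young replicates 1 or 3 or ABT-737 replicate 3 (adjusted p up to 0.0866, without ABT-737 replicate 3), and Jund did not without any 1 young replicate, vehicle replicate 5 or ABT-737 replicates 3 or 5 (adjusted p up to 0.162, without ABT-737 replicate 3). Txnrd1, a thioredoxin reductase and NRF2 target, was the 1 called of 31 antioxidant genes (log2 fold change 0.78 with SE 0.17, adjusted p = 0.0193 in edgeR), against 2.12% of all genes. Txnrd1 did not pass without young replicates 1, 3 or 4 or ABT-737 replicate 3 (adjusted p up to 0.114, without ABT-737 replicate 3).

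In lipid metabolism, 1 of 42 fatty acid oxidation genes was called higher (median 0.05) and 1 of 29 cholesterol and fatty acid synthesis genes lower, against 1.38% and 0.737% of all genes. These are single genes, from which nothing is read about their lists. Pdk4, a kinase that blocks pyruvate oxidation, had 8.15, 6.06, 8.49 and 5.08 CPM in young and 45.7, 58.4 and 7.79 CPM with ABT-737. Replicate 5 lay inside the young range (log2 fold change 2.41 with SE 0.59, adjusted p = 0.044 in edgeR). Pdk4 did not pass without any 1 young replicate or ABT-737 replicates 3 or 4 (adjusted p up to 0.136, without ABT-737 replicate 3). Cyp51, a sterol synthesis enzyme, fell from 154, 213, 202 and 190.2 to 96.1, 115 and 117 CPM (log2 fold change −0.80 with SE 0.15, adjusted p = 0.012 in edgeR). It did not pass without ABT-737 replicate 3 (adjusted p = 0.0545). Apol11b, of the apolipoprotein L family, had at most 1 count in any young kidney and 4, 7 and 12 counts with ABT-737, and was at least 2.83-fold higher (adjusted p = 0.00747, edgeR). Flt1, a receptor for vascular endothelial growth factor, was the 1 called of 20 endothelial genes, against 2.12% of all genes. With vehicle against young, 7 of the 20 were higher, against 7.75% of all genes. Flt1 rose from 34.3, 30.9, 32.5 and 30.0 to 89.9, 51 and 57.6 CPM (log2 fold change 1.05 with SE 0.18, adjusted p = 0.00656 in edgeR). Pecam1 and Cdh5, defining genes of endothelium, had log2 fold changes of −0.18 and 0.38 and did not pass.

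Blood and library quality moved with some calls. Of 8 red blood cell genes tested of 9 listed, 4 were higher, all beta globins, against 1.38% of all genes. Hbb-b1 had 1855, 455, 358 and 380.3 CPM in young, 4146, 3599 and 2518 CPM with ABT-737 and 3889, 4068 and 4118 CPM with vehicle (log2 fold change 2.17 with SE 0.44, adjusted p = 0.0156 in edgeR). Young replicate 1 lay between the other young and the treated kidneys. Hbb-b1 did not pass without young replicates 2, 3 or 4 or ABT-737 replicate 3 (adjusted p up to 0.0634, without young replicate 2). The listed genes summed to 1549.5 to 8416 CPM in young and 11217 to 17069 CPM with ABT-737. Tissues are stated to have been taken after perfusion. Hbb-b1 shares its span with Hbb-bs, and Hbb-b2 with Hbb-bt, so that the 4 are not separate measurements. The part of blood in the leukocyte genes above was not tested. Hist1h1e, a linker histone, had 2.14, 3.86, 0.293 and 2.31 CPM in young and 99.2, 6.43 and 7.27 CPM with ABT-737. Replicate 3 was highest, and the other treated kidneys also lay above every young one. Hist1h1e did not pass without young replicates 3 or 4 or ABT-737 replicate 3 (adjusted p up to 0.186, without ABT-737 replicate 3). Rn45s, the ribosomal RNA precursor, was called as well (log2 fold change 2.63 with SE 0.53, adjusted p = 0.0156 in edgeR), at 28505, 3991 and 3974 CPM in the treated kidneys. Rn45s did not pass without young replicates 1, 2 or 3 or ABT-737 replicate 3 (adjusted p up to 0.0866, without ABT-737 replicate 3). Mzb1, Igfbp6, Fga, Hspb8, Hspa1b, Dusp1, Ier5, Jund, Txnrd1, Pdk4 and Flt1 also missed the threshold when ABT-737 replicate 3 and young replicate 1 were both left out, whereas 7 of the 8 red blood cell genes were then higher.

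With ABT-737 against young, where 2.12% of all genes were called, edgeR called 0 genes in several groups. These were the 38 collagen and matrix genes tested (median −0.19), the 75 oxidative phosphorylation subunits (median −0.11), the 70 cytosolic ribosomal protein genes (median 0.15), the 13 genes of the loop of Henle (median −0.28), the 11 of collecting duct principal cells (median −0.37), the 11 of podocytes (median 0.18) and the 19 of fibroblasts, mesangial and smooth muscle cells (median −0.42). With vehicle against young, 6, 7, 7, 2, 5, 1 and 3 of the same genes were called in that order, against 13.3% of all genes. With ABT-737 against young, DESeq2 called 1, 1, 1, 0, 1, 1 and 1, and 12, 9, 13, 4, 5, 3 and 5 had an unadjusted p under 0.05 in edgeR.

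**Figure D5:**
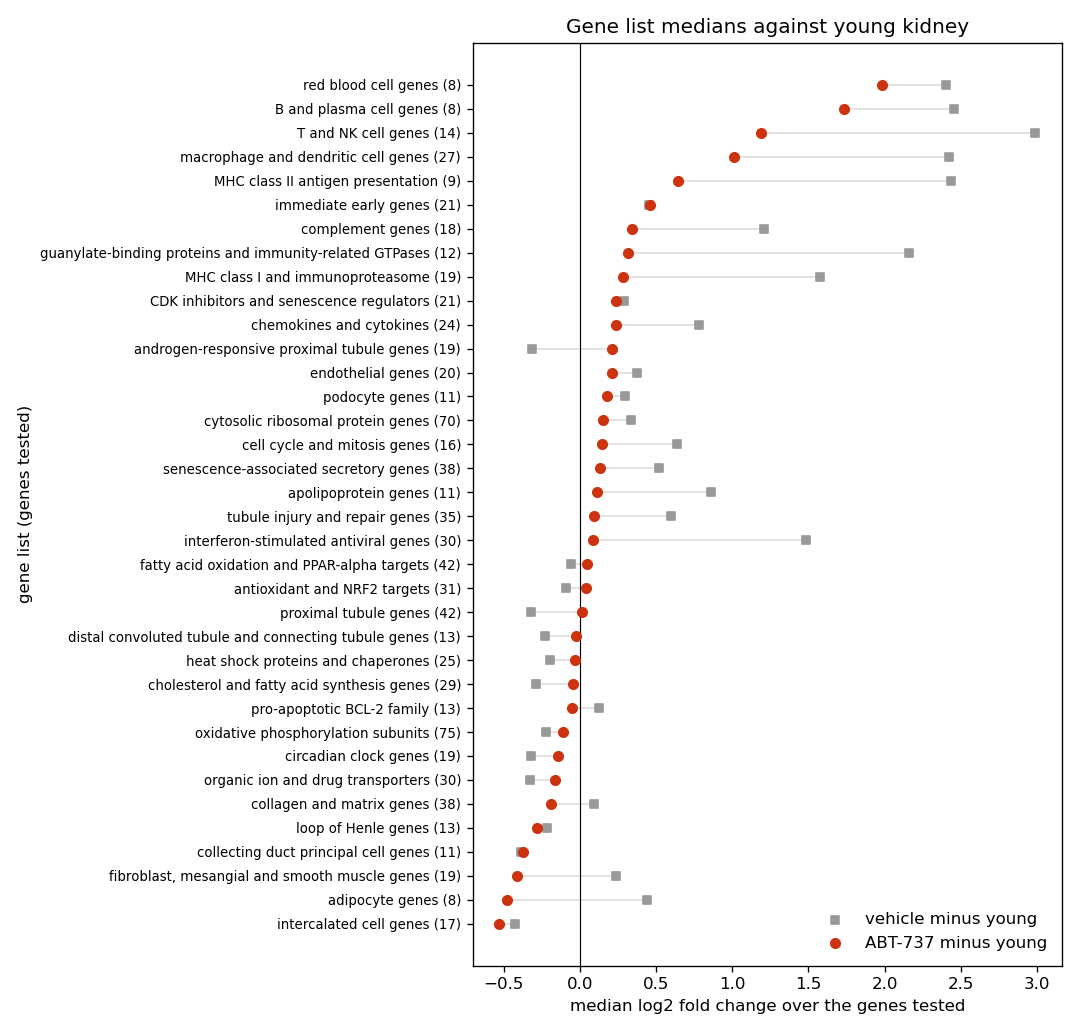
Median log2 fold change against young kidney (horizontal axis) of the 36 gene lists with at least 8 genes tested (vertical axis, genes tested in brackets), for ABT-737-treated (red circles) and vehicle-treated kidneys (grey squares), both against the same 4 young libraries. Immune lists lie to the right of 0, with ABT-737 nearer to 0 than vehicle and interferon-stimulated genes at 0.09 with ABT-737. Red blood cell genes lie highest at a median of 1.99 with ABT-737, and intercalated cell genes lowest at −0.53.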

How the data were processed

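RNA of perfused tissue was made into libraries by a bulk derivation of MARS-seq and read on a NextSeq-500. The submitters' processing notes name bcl2fastq, HISAT 0.1.5, HOMER and the build mm10, with no roles. The authors deposited whole-number counts of reads per RefSeq gene for kidney, liver and lung, not normalized, and collapsing of molecule barcodes and use of strand are not given in the sources used here. The skin table was not used. If reads were not collapsed, 3 counts could stand for fewer molecules, and the bounds computed from the floor could be too large. The p-values weigh a difference between groups against the spread between these samples, the vehicle-treated ones included.

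Of 24537 genes in the table, 11123 passed edgeR's expression filter over the 10 kidney libraries. Counts were scaled by TMM and the 3 groups fitted together in edgeR 4.0.16 (R 4.3.3), with quasi-likelihood tests and Benjamini-Hochberg adjustment over all genes tested, called at 0.05. The biological coefficient of variation was 16.5%. A group with at most 3 counts in each library was at the floor, and a fold against it is a bound computed with 3 counts in the shallowest library. The fit was repeated with the Wald test of DESeq2 1.42.0, its size factors in edgeR, other filters, only the 2 groups, a replicate block, thinned counts, an absolute log2 fold change over 1 and each library left out. Leaving out ABT-737 replicate 3 and young replicate 1 together was added after the values were seen. The method was tested on simulated counts.

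The members and the gene lists, written from general knowledge, were chosen with earlier results of these data known, and lists are described by counts and medians with no test. Named genes were the 8 highest and 8 lowest called log2 fold changes without overlap and with a mean count of at least 10 in the higher group, the 6 and 6 smallest p-values, fixed genes of the study and of senescence and kidney injury, and up to 4 called members per list and direction. A predicted or unnamed transcript was passed over in 1 case. Other genes are named as list members, 2 called list members are not reported here and were left out of their lists' counts, and Mir124-2hg was chosen after its value was seen. Among the genes tested, 47 fell in 17 sets of identical counts, and no pair of replicates was alike within sampling noise. Promoters are RefSeq windows of GRCm38.p6.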

Additional observations from a re-analysis of the deposited data

Results flagged for a closer look

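In the group of 4 young kidneys, 8 of 80 values looked at had a library far from the others, by a gap that chance gives in about 1 of 20 such groups. Hemoglobin genes summed to 8335 CPM in young replicate 1 against 1505 to 2001 CPM in the others, and the beta globins made up part of it. There, Hbb-b1 had 1855 CPM against 358 to 455 CPM, Hbb-bs 1849.7 CPM against 356 to 452 CPM, Hbb-b2 660.4 CPM against 134 to 162 CPM and Hbb-bt 658 CPM against 134 to 162 CPM, and each pair shares a span. Young replicate 2 was apart in 3 genes, with 47.7 CPM of Hspa1b against 62.4 to 65.2 CPM, 11.6 CPM of Palm3 against 16.6 to 17.6 CPM, and 17.6 CPM of Slc16a6 against 15.4 to 15.8 CPM. The cause of these gaps was not tested.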

How the results depend on the processing

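The 236 genes called between ABT-737 and young became 452 (292 higher, 160 lower) with no filter beyond 1 count, 156 (99 higher, 57 lower) after thinning, 141 (96 higher, 45 lower) with a log2 fold change over 1 also required, 353 (232 higher, 121 lower) with DESeq2 and 92 (64 higher, 28 lower) without ABT-737 replicate 3 and young replicate 1. Vehicle against young gave 708 genes with a log2 fold change over 1. ABT-737 against vehicle gave 368 with no filter, 229 with DESeq2 and 69 with only these 2 groups. The replicate numbers did not pair the samples (correlations of deviations −0.21 to 0.06), and a replicate block gave 33 genes (22 higher, 11 lower) for ABT-737 against young, 369 for vehicle against young and 59 for ABT-737 against vehicle. With 1 library left out, these 3 comparisons gave 107 to 308 (66 to 204 higher, 40 to 109 lower), 842 to 1885 and 57 to 471 genes. ABT-737 against young gave 133 without ABT-737 replicate 3 and 136, 111, 107 and 110 without young replicates 1 to 4. Vehicle against young gave 842, 885 and 967 without vehicle replicate 4, vehicle replicate 5 and young replicate 4, and ABT-737 against vehicle gave 471, 92, 94 and 57 without vehicle replicates 3 and 4 and ABT-737 replicates 3 and 4. The cause was not tested beyond the smaller number of samples or genes that some of these fits hold.

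Of the 66 named genes called, 35 passed whichever library was left out and 31 did not pass in at least 1 of those 10 fits, and 25 passed under the block. None of the 66 changed sign in any alternative tried. Among the named genes not called, the log2 fold change of Cxcl10 was −0.0292 after thinning, and with 1 library left out that of Mcl1 ran from −0.0473 (without ABT-737 replicate 4) to 0.237 and that of Umod from −0.0680 (likewise) to 0.120. Depth limits the genes with few counts, such as Ciart, Igfbp6 and C4a, and Cdkn2a, which no group holds above 3 counts.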
